A study of Drosophila melanogaster with 2 samples.

Results

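The 73 protein coding genes of Drosophila melanogaster whose symbol starts with mRpL or mRpS encode proteins of the mitochondrial ribosome, and they are described here by the fu2-GFP peaks at their transcript starts. They were taken by symbol from 13968 protein coding genes of the Ensembl annotation, with earlier results of these peaks known. Of the 73, 47 are named for the large subunit (mRpL) and 26 for the small subunit (mRpS). All counts by subunit follow these names and were not checked against the structure of the ribosome. The peaks come from chromatin immunoprecipitation followed by sequencing with an anti-GFP antibody. The 1 group consists of whole embryos, 0 to 24 h old and of mixed sex, from a transgenic line that stably expresses fu2 fused at its C-terminus to GFP, and the labels name prg as the targeted gene. It has 2 biological replicates, numbered 2 and 3, and both carry the transgene, so no comparison of conditions is possible. Which promoter drives the fusion is not stated in the labels. In whole embryos a weak signal from many cells and a strong signal from few cells cannot be told apart, and peak lists hold no measure of tissue identity. Each dm6 list of replicate 2, of replicate 3 and of both pooled holds 30000 regions, and 3033 peaks passed the authors' irreproducible discovery rate (IDR) threshold. The lists hold no reads, so the depth is unknown.

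Mitochondrial ribosomes translate the few proteins encoded by mitochondrial DNA, all of them membrane subunits of the respiratory chain and ATP synthase. Their RNA comes from the mitochondrial genome, whereas all their proteins are encoded in the nucleus, made in the cytosol and imported. Many descend from bacterial ribosomal proteins, and others are found only in mitochondria. Because each ribosome needs its proteins in fixed ratios, their genes, scattered over the nuclear genome, are a model for how a large gene set is expressed in concert.

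A peak stood at the start of 25 of the 73 genes (34.2%, exact 95% interval 23.5% to 46.3%, which covers counting over genes only). A gene was counted when the summit of a peak, the base the authors give as its highest point, lay within 500 bp of any of its transcript starts. Over all protein coding genes the share was 17.5%. The large subunit had a peak at 17 of 47 genes and the small subunit at 8 of 26. When the 3033 strongest regions of a replicate were used in place of the IDR peaks, 29 genes were reached in replicate 2, against 17.3% of all genes, and 28 in replicate 3, against 17.2% (39.0% ± 0.969 of the members, SD, n = 2). The 25 genes had 25 separate peaks, so no peak was counted for more than 1 of them. Their median signal value, the authors' own measure of a region's strength, was 105.2, and over all protein coding genes with a peak it was 105.1. The members thus had peaks more often than genes in general, at a median signal value like that of all protein coding genes with a peak. That median counts a shared peak once for each of its genes, and over 1868 distinct IDR peaks at protein coding starts it was 99.2. Medians do not describe the upper end, where 4 members ranked in the first 100 pooled regions. With only 2 replicates and no control group, these shares stand without a test.

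Most members had a listed region at the start, strong or weak. In the pooled list 66 of 73 genes (90.4%) had a summit at the start, against 55.7% of all protein coding genes. These were the 25 with an IDR peak and 41 with regions under its threshold alone. Replicate 2 listed 61 members, against 52.0% of all genes, and replicate 3 listed 67, against 56.0%. Among genes with any listed pooled summit, 25 of 66 members (37.9%) and 31.4% of all genes had an IDR peak, so these shares lay closer together than the 34.2% and 17.5% over all genes of each set. Members were reached more often than all genes at each depth of the pooled list. The strongest 1000 pooled regions reached 10 members (13.7%) and 6.74% of all genes. The strongest 4000 reached 37 members (50.7%) and 21.4% of all genes. The strongest 10000 reached 53 members (72.6%) and 37.5% of all genes. The step from 25 to 37 members between the IDR threshold and rank 4000 adds 12 members that lay just under that threshold.

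**Figure D1:**
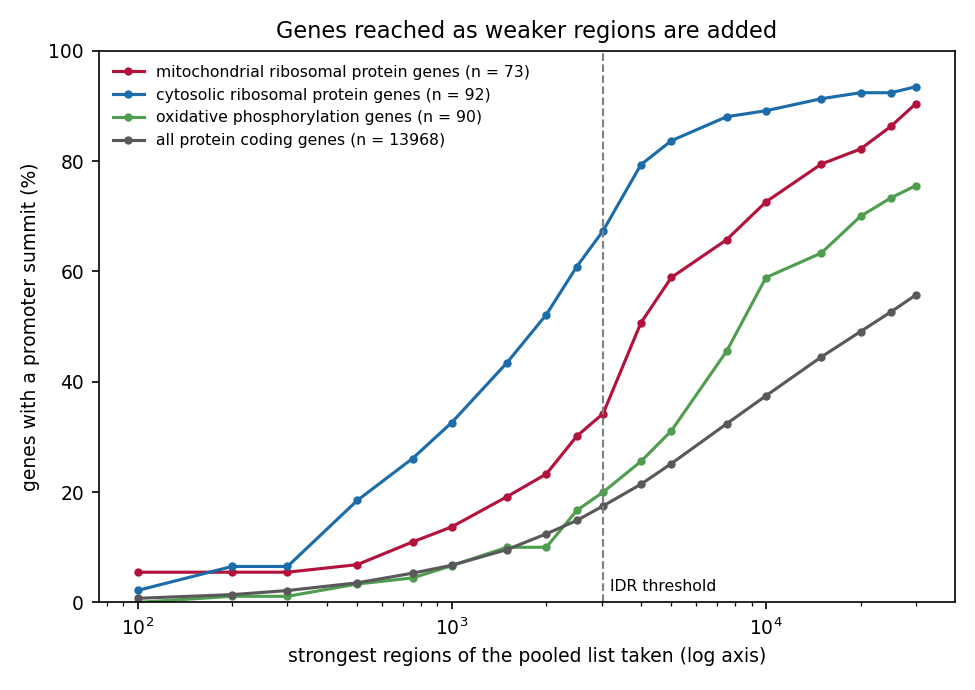
Share of genes with a summit within 500 bp of a start (%, vertical axis) as more regions of the pooled list are taken, strongest first (horizontal axis, log scale), for 4 gene sets. The line of the 73 mitochondrial ribosomal protein genes lies above that of all protein coding genes and, from 200 regions on, below that of the 92 cytosolic ribosomal protein genes, and it is at 34.2% at the IDR threshold.

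The strongest peaks were at 4 genes, each ranked in the first 50 regions of every list. The strongest 100 pooled regions reached these 4 of the 73 members (5.48%) and 0.745% of all protein coding genes. mRpL41 (FBgn0034001), for a mitochondria-specific large subunit protein, had a peak at chr2R:15217578-15217998, with a signal value of 1157 in the pooled list, 475.5 in replicate 2 and 680.4 in replicate 3. It ranked 4 in all 3 lists, and its summit lay 137 bp upstream of the start, between genes. mRpS23 (FBgn0260407), for a mitochondria-specific small subunit protein, followed at chr2L:13835284-13835635 with 828.1 pooled (rank 15), 302.9 in replicate 2 (rank 17) and 527.9 in replicate 3 (rank 12). mRpS10 (FBgn0038307), whose bacterial counterpart sits in the head of the small subunit, had a peak at chr3R:15229351-15229731 with 815.2 pooled (rank 16), 301.3 in replicate 2 (rank 18) and 512.7 in replicate 3 (rank 16). mRpL23 (FBgn0035335), whose bacterial counterpart lies at the rim of the exit tunnel, had a peak at chr3L:2373435-2373786 with 533.9 pooled (rank 45), 203.8 in replicate 2 (rank 47) and 331.2 in replicate 3 (rank 45). After these 4 the values dropped, to 212.9 (rank 321) at mRpL34, and the other 20 ranged from 164.9 at mRpL53 down to 64.7 at mRpL1. Signal values of different lists are not on 1 scale, so only ranks are compared between them.

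The next 6 members ranked between 321 and 946 in the pooled list, and 2 of them differed in rank between the replicates by more than a factor of 2. At mRpL34 (FBgn0083983; chr2R:16098645-16098774) the signal value was 87.6 in replicate 2 (rank 267) and 126.5 in replicate 3 (rank 378). At mRpL53 (FBgn0050481; chr2R:13953921-13954324; pooled rank 586) it was 47.5 (rank 1000) and 113.0 (rank 502). These 2 genes are named for proteins of the large subunit, mRpL34 with a bacterial counterpart and mRpL53 mitochondria-specific. At mRpS2 (FBgn0031639; chr2L:4850527-4850673), a small subunit gene, the values were 59.6 (rank 643) and 90.3 (rank 768). At mRpL18 (FBgn0026741; chr2R:12756064-12756467; pooled rank 694) they were 63.3 (rank 561) and 90.4 (rank 767). The ranks of these 4 were within a factor of 2. At mRpL4 (FBgn0001995; chr2L:16329139-16329264) they were 68.5 (rank 468) and 61.6 (rank 1525), and at mRpL47 (FBgn0014023; chr3R:9515787-9516190) 78.3 (rank 337) and 45.2 (rank 2520), so both ranked higher in replicate 2.

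**Figure D2:**
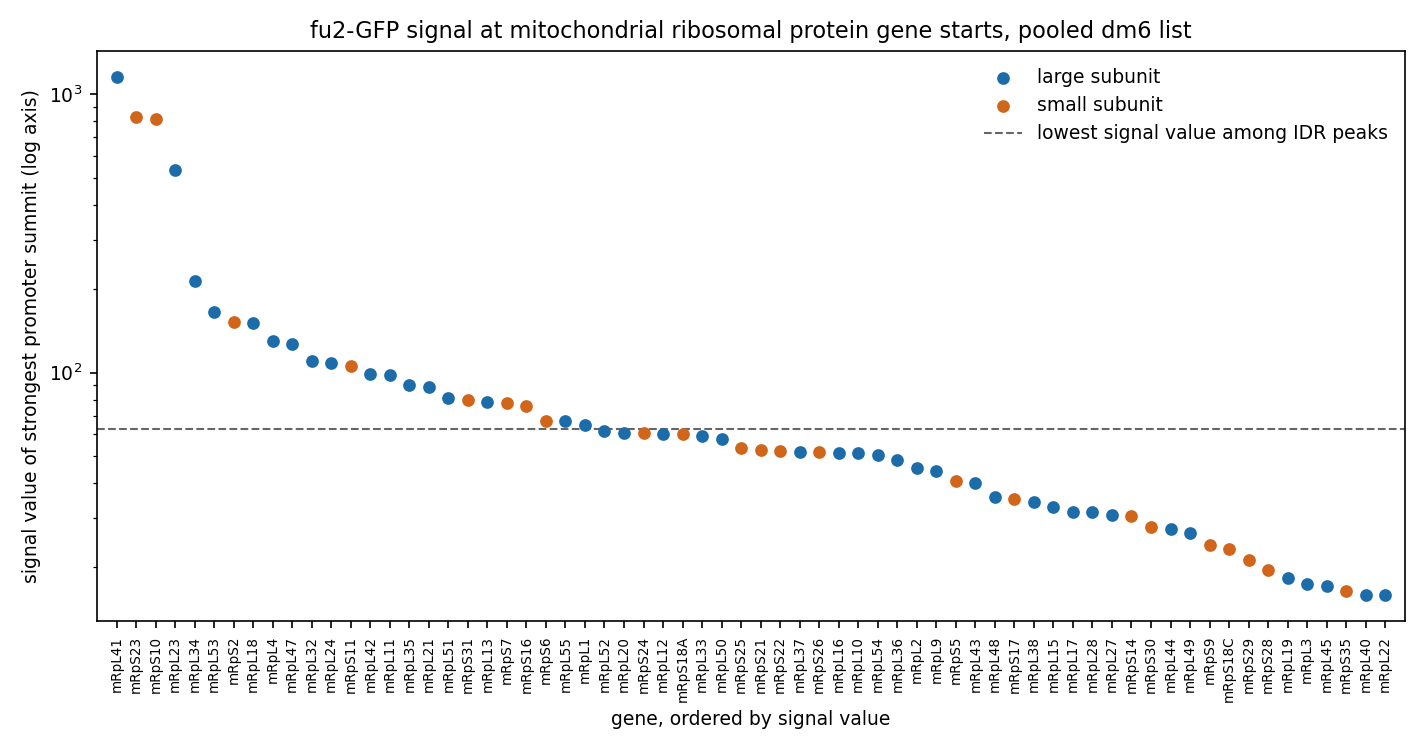
Signal value of the strongest promoter summit in the pooled dm6 list (vertical axis, log scale) for the 66 genes with one, ordered by value, with large subunit genes in blue and small subunit genes in orange. mRpL41, mRpS23, mRpS10 and mRpL23 stand apart at the left with 533.9 or more, and the others fall gradually through the lowest signal value among IDR peaks (dashed line, 62.5) to 15.9.

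In the large subunit, genes are given by the part of the ribosome their protein belongs to, with roles taken mainly from the bacterial counterparts. These groups hold 4 to 7 genes each, differences between them were not tested, and the share over all protein coding genes was 17.5%. A peak counted here can lie nearer to the start of another gene. The member's start was the nearest at 2 of the 4 exit tunnel peaks and at 1 of the 2 stalk peaks. Around the peptide exit tunnel 4 of 7 genes had a peak: mRpL23 (533.9), mRpL4 (129.9; rank 904), mRpL47 (126.7; rank 946), whose bacterial counterpart is L29, and mRpL24 (108.3; rank 1263). mRpL17 (31.6), mRpL45 (17.1) and mRpL22 (15.9) of the same region were listed under the threshold. The stalk proteins, which serve the elongation factors and the exit of tRNA, had a peak at 2 of 4 genes, mRpL11 (97.6) and mRpL1 (64.7), while mRpL12 (60.3; rank 3192) and mRpL10 (51.2; rank 4030) stayed under it. At the catalytic centre none of 4 genes had a peak, and mRpL16 (51.4), mRpL2 (45.6), mRpL27 (30.8) and mRpL3 (17.3) were listed with weaker regions. Here and below, the share that a count of 0 allows is taken as 3 divided by the number of genes, which is rough for so few. A count of 0 of 4 thus allows a share of up to 75%, so this does not set the catalytic centre apart. The other 11 large subunit genes with a peak were mRpL41, mRpL34 (212.9), mRpL53 (164.9), mRpL18 (151.2), mRpL32 (110.0), mRpL42 (99.1), mRpL35 (90.6), mRpL21 (88.7), mRpL51 (81.3), mRpL13 (78.5) and mRpL55 (66.9).

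In the small subunit, the head and the body both held genes with and without a peak, in groups as small and untested against each other. Of 9 head proteins 3 had one: mRpS10 (815.2), mRpS31 (79.8) and mRpS7 (77.8). Of the other 6, mRpS24 (60.5) lay just under the threshold. mRpS14 (30.6), mRpS9 (24.0), mRpS29 (21.2), known in mammals as the death-associated protein DAP3, and mRpS35 (16.3) had weaker regions, and mRpS33 had none. Of 6 genes for the body and platform, mRpS11 (105.2), mRpS16 (75.6) and mRpS6 (67.2) had a peak, and mRpS21 (52.6), mRpS5 (40.7) and mRpS17 (35.0) were listed under the threshold. The member's start was the nearest to the summit at 2 of the 3 head peaks and 2 of the 3 body and platform peaks. mRpS23 (828.1) and mRpS2 (151.9; rank 684) complete the 8. By origin, 19 of 46 genes for proteins with a bacterial counterpart had a peak (41.3%), and 6 of 27 for mitochondria-specific proteins (22.2%). At this threshold the second share was near the 17.5% of all protein coding genes. The 6 were mRpL41, mRpS23, mRpL53, mRpL42, mRpL51 and mRpS31. With the strongest regions of replicate 2 the counts were 23 and 6, and with those of replicate 3 they were 21 and 7. The strongest 4000 pooled regions reached 54.3% and 44.4%, against 21.4% of all protein coding genes. Counting only summits nearest to the member's start left 9 of 46 and 5 of 27, against 12.7% of all protein coding genes. The difference by origin thus depended on the threshold and the way of counting. The origin was assigned from the names of the mammalian proteins, and the difference was not tested.

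The DNA under the 3 strongest summits shown was rich in A and T. Sequence around the summit is given for the 8 strongest peaks on the arms 2L, 3L and 3R, on dm6 and on the strand of the gene, 5′ to 3′, up to 50 bp on each side of the summit. Annotated UTR bases were left out except at mRpL23, whose summit is in its 5′ UTR and for which 29 bases around it are given. None of the 9 words searched (named further on) lies whole in these stretches, so no letters are capitalised. The summits are not all free of them, since bases left out within 50 bp completed words. These were TATAAA at mRpL23 (16.5 bp from the summit), CAACACTG and CAGCTG at mRpS2 (17.5 and 36.5 bp), and CAGCTG at mRpL24 (40.5 bp).
mRpS23, chr2L:13835413-13835513, minus strand: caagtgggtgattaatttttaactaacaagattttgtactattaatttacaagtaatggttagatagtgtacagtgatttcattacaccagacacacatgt
mRpS10, chr3R:15229467-15229567, plus strand: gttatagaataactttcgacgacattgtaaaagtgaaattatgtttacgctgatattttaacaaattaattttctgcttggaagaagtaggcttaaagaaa
mRpL23, chr3L:2373610-2373638, minus strand: ttttaaaagtggtaaaagtgtggaatatt
mRpS2, chr2L:4850575-4850640, minus strand: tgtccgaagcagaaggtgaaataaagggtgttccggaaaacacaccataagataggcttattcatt
mRpL4, chr2L:16329185-16329285, minus strand: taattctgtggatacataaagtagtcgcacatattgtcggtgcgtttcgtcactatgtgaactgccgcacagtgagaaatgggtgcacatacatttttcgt
mRpL47, chr3R:9515939-9516006, minus strand: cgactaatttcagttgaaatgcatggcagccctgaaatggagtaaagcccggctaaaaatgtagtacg
mRpL32, chr3R:31252672-31252772, plus strand: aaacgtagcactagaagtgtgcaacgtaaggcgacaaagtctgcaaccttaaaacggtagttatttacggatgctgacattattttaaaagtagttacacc
mRpL24, chr2L:4945505-4945578, minus strand: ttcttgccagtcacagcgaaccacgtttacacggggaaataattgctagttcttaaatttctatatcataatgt
The 3 strongest of these had a GC content of 29.7% (mRpS23), 27.7% (mRpS10) and, over its 29 bases, 24.1% (mRpL23), and the others 36.5% to 44.1%. Over the 25 summits of members the median GC content within 50 bp was 38.6%, the same as over the 1868 IDR peaks at protein coding starts. The family's median thus did not differ from that of other peaks.

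Around the IDR threshold the members formed a continuous series. The 3 weakest peaks were at mRpS6 (67.2; rank 2738), mRpL55 (66.9; rank 2758) and mRpL1 (64.7; rank 2884). The 3 strongest summits under the threshold were at mRpL52 (61.8; rank 3079), mRpL20 (60.9; rank 3144) and mRpS24 (60.5; rank 3177), and 7 members lay within 500 ranks under it. In replicate 2 the weakest peaks had 21.7 (mRpS6; rank 3618), 10.8 (mRpL55; rank 13429) and 19.8 (mRpL1; rank 4177), and in replicate 3 they had 45.5 (rank 2497), 55.5 (rank 1830) and 43.6 (rank 2676). The genes just under the threshold had 15.3 (mRpL52; rank 6481), 32.9 (mRpL20; rank 1884) and 16.7 (mRpS24; rank 5507) in replicate 2, and 44.8 (rank 2565), 29.4 (rank 4891) and 42.7 (rank 2789) in replicate 3. At mRpL55, mRpL52 and mRpL20 the ranks thus differed between the replicates by more than a factor of 2. At mRpS6, mRpL1 and mRpS24 they were within that factor. The other 4 of the 7 were mRpL12, mRpS18A (59.9), mRpL33 (59.3) and mRpL50 (57.6). In all, 41 members were listed only under the threshold, and 7 had no pooled summit. Of these 7, mRpL39 and mRpL46 were listed in replicate 3 alone and mRpS18B and mRpS34 in both replicates. mRpL14, mRpL30 and mRpS33 were listed in none of the 3 lists. A gene absent from these lists had no region among the 30000 of a list, which does not show that fu2-GFP was absent from it.

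The 4 strongest members held nearly the same ranks in both replicates, and some others were further apart. Of the 25 members with a peak, 21 were reached by the 3033 strongest regions of both replicates, and 4 by those of replicate 3 alone: mRpL51, mRpS6, mRpL55 and mRpL1. The ranks of 21 members with a peak were within a factor of 2 of each other. The widest gaps were at mRpL55, which ranked higher in replicate 3, and at mRpL47, which ranked higher in replicate 2. Of the members without an IDR peak, 8 were among the strongest regions of replicate 2 (mRpL9, mRpL12, mRpL16, mRpL17, mRpL20, mRpS18A, mRpS21 and mRpS22) and 3 others among those of replicate 3 (mRpL33, mRpL52 and mRpS24). Across the 58 members listed in both replicates the ranks had a Spearman correlation of 0.748, and across 6111 protein coding genes it was 0.789, as a description over genes of the same 2 libraries. At 19 of the 25 the strongest summits of the replicates lay within 50 bp of each other, and this share was not taken over all genes. At the others they lay further apart, as at mRpL35, where the summit was 269 bp upstream in replicate 2 and 85 bp in replicate 3.

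**Figure D3:**
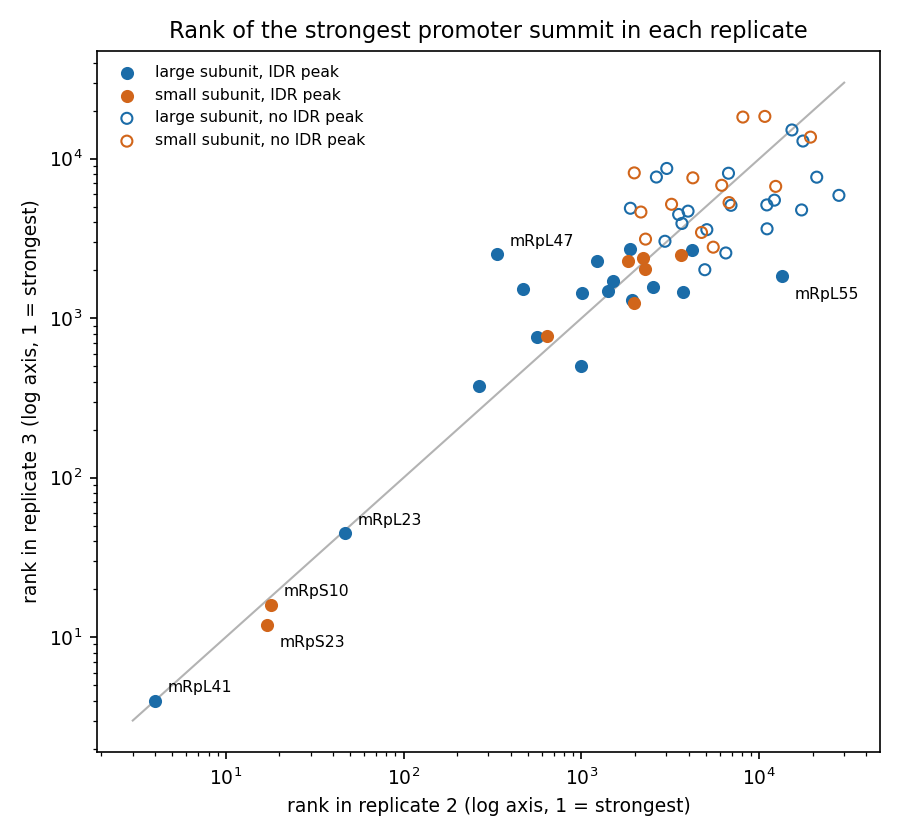
Rank of each gene's strongest promoter summit in replicate 2 (horizontal axis) and replicate 3 (vertical axis), both on log scales with 1 as the strongest, for the 58 genes listed in both. Filled points have an IDR peak, open points have none, and the line marks equal ranks: mRpL41, mRpS23, mRpS10 and mRpL23 lie close to the line, and mRpL55 and mRpL47 lie far from it.

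Mitochondrial ribosomal protein genes often start head to head with another gene, and their peaks mostly lay in such shared promoters. A divergent start, meaning that of another protein coding gene on the opposite strand within 500 bp upstream, was present at 53 of 73 members (72.6%) and at 27.3% of all protein coding genes. It was also more frequent than among cytosolic ribosomal protein genes (39.1% of 92) and oxidative phosphorylation genes (43.3% of 90). Members with a divergent start had a peak at 22 of 53 genes (41.5%), and all protein coding genes of that kind at 37.0%. Members without one had a peak at 3 of 20 genes (15%), mRpL41, mRpL4 and mRpL13, and all genes of that kind at 10.2%. Within each kind of promoter the members were therefore closer to the share of all genes than in the count over all promoters. A summit between 2 starts counts for both genes, which sets part of this pattern by the way genes are counted. When a summit counted only for the gene with the nearest start, 14 members had a peak (19.2%), against 12.7% of all genes.

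**Figure D4:**
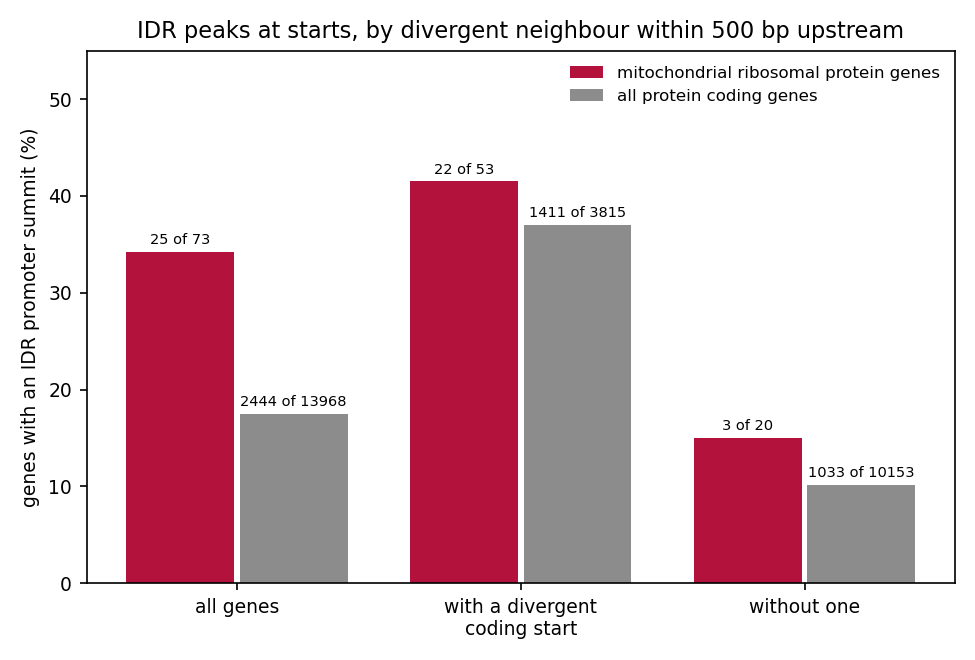
Genes with an IDR peak at the start (%, vertical axis, from 0), for the mitochondrial ribosomal protein genes (red) and all protein coding genes (grey), over all promoters and apart for genes with and without a divergent protein coding start within 500 bp upstream. The counts stand above the bars, and the members reach 41.5% with a divergent start and 15% without, against 37.0% and 10.2% of all genes.

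The summit was shared with another gene at 24 of the 25 members, and with another protein coding gene at 23 (92.0%), against 60.1% of all protein coding genes with a peak. Only mRpL4 had no other start within 500 bp of the summit, and mRpL41 shared it with lncRNA:CR44463, 441 bp away. The start of the member was the nearest at 14 of 25 (56%), against 69.7% of all protein coding genes with a peak. At mRpS23 the summit lay 391 bp upstream of that start and nearer to that of CenG1A, the 2 starts being 492 bp apart, and at mRpS10 it lay 148 bp upstream of that gene and 109 bp upstream of Art3, an arginine methyltransferase gene. At mRpL23 it lay 54 bp inside the gene and 104 bp upstream of CG9004. As at mRpS23 and mRpS10, another start was nearer than the member's at mRpL34, mRpS2, mRpL18, mRpL47, mRpL32, mRpL24, mRpL11, mRpL21 and mRpS16. Of the partners, 5 encode mitochondrial proteins themselves: Taz beside mRpL18 (tafazzin, which remodels cardiolipin), qless beside mRpL32 (coenzyme Q synthesis), HtrA2 beside mRpL11 (a protease), Mitofilin beside mRpL35 (an organiser of the inner membrane) and ATPsynD beside mRpL55 (a subunit of ATP synthase). Others act elsewhere in the cell, such as Cdk1 beside mRpS7 (the mitotic kinase), AGO1 beside mRpL53 (Argonaute of the microRNA pathway), rept beside mRpL21 (the ATPase Reptin), Dg beside mRpL34 (Dystroglycan) and Ns1 beside mRpS11 (a nucleostemin). Partners of other genes were not sorted in this way, so whether mitochondrial partners are more frequent at members is not known. CG33155 at mRpL53 and CG10602 at mRpL13 lie on the same strand as the member with the summit at the same distance, so they share its start. The 25 summits lay upstream of the member's start at 21 genes (84.0%), at a median of 121 bp, close to 87.4% and 109 bp over all protein coding genes with a peak. By annotation 17 were between genes, 7 in a 5′ UTR of the member or its partner, and 1 in an intron, that of AGO1.

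By chromosome arm, a peak stood at 7 of 12 members on 2L, against 16.9% of all protein coding genes there, and at 6 of 12 on 2R, against 17.1%. On 3L it stood at 4 of 17, against 18.1%, and on 3R at 8 of 21, against 19.2%. On X none of 11 had one, against 15.7% of all protein coding X genes, and on the autosomes 25 of 62 members (40.3%) had one, against 17.9%. A count of 0 of 11 allows a share of up to 27.3%, above that of all X genes, so a difference from them was not detectable with 11 genes. That limit lies below the 40.3% of the autosomal members, and the difference between X and autosomal members was not tested. The X genes were not devoid of signal, since 9 of 11 had a listed pooled summit. The strongest were mRpL33 (59.3; rank 3258), mRpS25 (53.5; rank 3777) and mRpL16 (51.4; rank 4011), and 1 X gene was among the strongest regions of replicate 2 (mRpL16) and 1 among those of replicate 3 (mRpL33).

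Promoters of mitochondrial ribosomal protein genes were rich in the E-box CAGCTG, mostly close to the start. In the window from 250 bp before to 50 bp after the start, 40 of 73 members (54.8%) held this word on either strand (it is its own reverse complement), against 17.6% of all protein coding promoters. The share was similar in the large subunit (57.4%) and the small subunit (50%), and in members with a divergent start (54.7%) and without one (55%), against 25.1% and 14.9% of all protein coding promoters of these kinds. It was 50% in the 42 other genes of mitochondrial gene expression described below, so the word was not particular to the members. In oxidative phosphorylation genes the share was 23.3% and in cytosolic ribosomal protein genes 9.78%. The words were chosen with earlier results of these peaks known. Relative to the start, the first base of the word lay at a median of 2 bp, with quartiles at -34 and 16 bp. A narrower window of 50 bp on each side of the summit held it at 3 of the 25 members with a peak (12%). Over the 1868 IDR peaks at protein coding starts this share was 7.39%. Within 150 bp of the summit, a width near that of the promoter window, it was 14 of the 25 (56%). Of the promoters of these 25 genes, 16 (64%) held it. No share over all IDR peaks was taken within 150 bp. Members with the word had a peak at 16 of 40 genes (40.0%) and those without it at 9 of 33 (27.3%). Over all protein coding genes these shares were 23.9% and 16.1%.

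The E-box sites of the 6 strongest of these members on the arms 2L, 3L and 3R show what surrounds the word, with the word in capitals, on the strand of the gene, 5′ to 3′, dm6. They show 1 site a gene, the most upstream one with 10 bases on each side inside the promoter window. At mRpL24 this site lies 237 bp upstream of the start, and a second one, not shown, lies 20 bp inside the gene. At the other 5 genes the site shown lies within 28 bp of the start, and tt follows the word.
mRpL23, chr3L:2373717-2373742, minus strand: ggttgacaatCAGCTGtttaaaacaa
mRpS2, chr2L:4850415-4850440, minus strand: cactacccacCAGCTGtttaccaaaa
mRpL47, chr3R:9515875-9515900, minus strand: gttattgcttCAGCTGttttgttcgg
mRpL32, chr3R:31252846-31252871, plus strand: atcgatagcaCAGCTGtttcctcttg
mRpL24, chr2L:4945583-4945608, minus strand: ccacaaatagCAGCTGcttcttctta
mRpL11, chr3R:14511823-14511848, plus strand: gcaataccatCAGCTGttgctgcttc
The longer word CAGCTGTT, chosen after these sites were seen and overlapping the E-box, was in 27 of 73 member promoters (37.0%) on either strand and in 7.60% of all protein coding promoters. It was also in 16 of 42 promoters (38.1%) of other genes of mitochondrial gene expression. A match is a description of the sequence and does not show that a factor binds there.

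**Figure D5:**
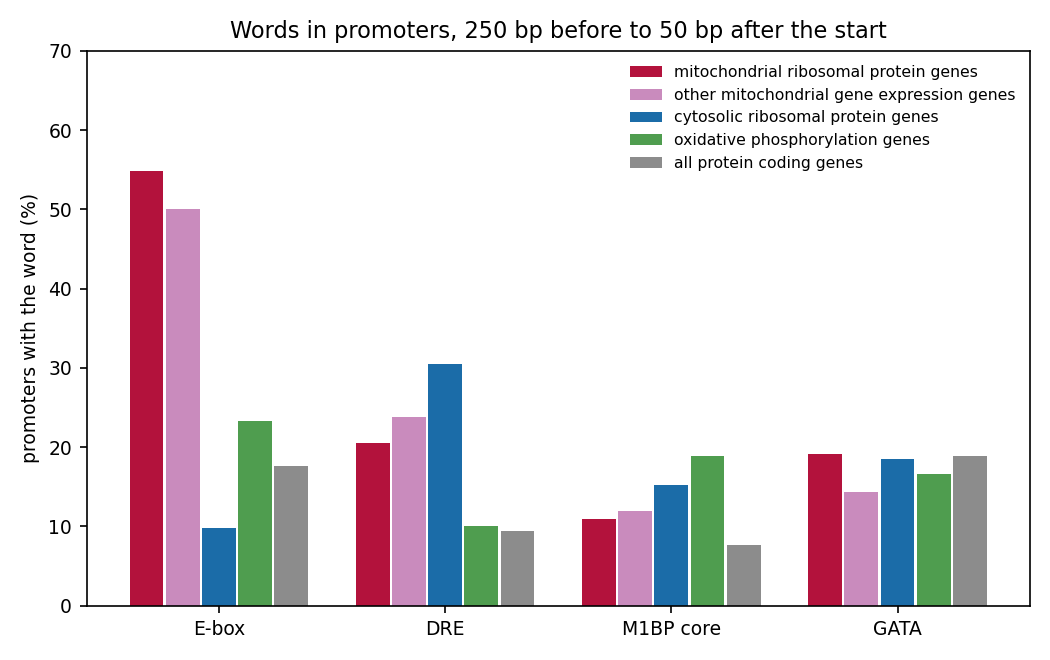
Promoters holding each of 4 words (%, vertical axis, from 0), in the window from 250 bp before to 50 bp after the gene start, for 5 gene sets. The E-box is in 54.8% of the mitochondrial ribosomal protein promoters and 50% of those of other mitochondrial gene expression genes, against 17.6% of all, and the GATA word is in 14.3% to 19.2% of each set.

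Of the other words, the DNA replication-related element TATCGATA (DRE), bound by DREF and BEAF-32, was in 15 of 73 member promoters (20.5%), against 9.36% of all. It was in 3 of the 25 with a peak (12%) and 12 of the 48 without (25%), and within 50 bp of none of the 25 summits, against 4.76% of all IDR peaks at protein coding starts. Members with a DRE had a peak at 3 of 15 genes (20%) and those without it at 22 of 58 (37.9%). Over all protein coding genes these shares ran the other way, 28.5% with it and 16.4% without. The difference among members was not tested. The core GGTCACAC of the M1BP motif was in 11.0% of member promoters against 7.69% of all. Among promoters with a divergent start, the members' shares of both words were not above those of all genes. The DRE was in 15.1% of such member promoters against 17.4% of all such promoters, and the M1BP core in 13.2% against 14.7%. Without a divergent start, the DRE was in 7 of 20 member promoters (35%) against 6.32% of all such promoters, and the M1BP core in 1 of 20 (5%) against 5.06%. Core promoter motif 7, searched as CAGCNCTA and CATCNCTA, was in 4.11% and 11.0% of member promoters, against 3.56% and 6.41% of all. With a divergent start these were 5.66% and 9.43% of member promoters against 5.06% and 12% of all. Neither form was within 50 bp of any of the 25 summits. TATAAA was in 46.6% against 45.8%, GATAAG in 19.2% against 18.9%, and GAGAGAG in 1.37% against 5.86%. Words were searched on both strands. None contains another, but the DRE ends in GATA and can overlap GATAAG by those letters.

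The word CAACACTG was within 50 bp of 4 of the 25 member summits (16%), at mRpL53, mRpS2, mRpS11 and mRpL51, against 5.89% of all IDR peaks at protein coding starts and 4.88% of the 41 strongest summits of members under the threshold. Those of mRpS2, mRpS11 and mRpL51 are shown with the word, on either strand, in capitals, 5′ to 3′ on the strand of the gene, dm6. mRpS11 holds it on both strands, 1 base apart.
mRpS2, chr2L:4850630-4850655, minus strand: tggatttccCAACACTGtccgaagca
mRpS11, chr3R:17072713-17072738, plus strand: cgtgctagcCAACACTGccagtgttg
mRpS11, chr3R:17072722-17072747, plus strand: caacactgcCAGTGTTGccagactgg
mRpL51, chr2L:8517379-8517404, minus strand: tacattttcCAACACTGccggcttgc
This word is one that earlier results of these peaks had put forward, so its presence at 4 member summits is no independent evidence of it. Its centre lay 5.5 bp from the summit at mRpL51, 17.5 bp at mRpS2, 16.5 and 25.5 bp at mRpS11, and 33.5 bp at mRpL53.

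Of 42 other genes of mitochondrial gene expression outside the mRp names, 8 had a peak (19.0%), near the 17.5% of all protein coding genes, and the difference from the members' 34.2% was not tested. Of 17 for mitochondrial DNA and RNA, 6 had one (35.3%), a share like that of the members: PNPase (913.7; rank 9), for polynucleotide phosphorylase, SLIRP2 (540.3; rank 43) and SLIRP1 (125.1), whose mammalian counterpart stabilises mitochondrial mRNA, mtSSB (126.6), for the single-stranded DNA binding protein, PolrMT (85.8), for the mitochondrial RNA polymerase, and PolG2 (79.9), for the accessory subunit of its DNA polymerase. Of 15 mitochondrial tRNA synthetase genes, ArgRS-m (143.3) and LeuRS-m (69.2) had a peak. None of 8 translation factor genes had one, which allows a share of up to 37.5%, and mEFTu1 (40.0; rank 5758) was the strongest of them. Nor did tko (43.6; rank 5074) and bonsai (20.8; rank 16533), which encode the mitochondrial ribosomal proteins S12 and S15 under other names. Including tko and bonsai, the E-box was in 21 of these 42 promoters (50%). For comparison, a peak stood at 62 of 92 cytosolic ribosomal protein genes (67.4%) and at 18 of 90 oxidative phosphorylation genes (20.0%). Among those with a peak, the summit was shared with another protein coding gene at 46.8% of the cytosolic ribosomal protein genes and 77.8% of the oxidative phosphorylation genes, against 92.0% of the members.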

How the data were processed

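Per the labels' protocols and descriptions, chromatin of 0 to 24 h embryos was sonicated to 200 to 800 bp and precipitated with an anti-GFP antibody. Per the file manifests, the authors called a list on each replicate and on both pooled, with a further input not described there, and derived the IDR peaks from those lists. Neither the alignment and peak calling tools nor the threshold of the IDR step were stated in the labels or manifests, and they are not given in the sources used here. Each region of the deposited dm6 lists carries the authors' signal value, a q-value as its −log10 (not used further) and an offset of the summit. On dm6 the IDR peaks are the 3033 strongest pooled regions. The 4 lists on dm3 were not used here, since no dm3 annotation was at hand. Depth and its precision cannot be stated without reads, and no control library was analysed here.

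Starts came from Ensembl release 115 (BDGP 6.54) and sequence from Release 6 as held by NCBI. Positions are 1-based. Promoters for words ran from 250 bp before to 50 bp after the gene's first annotated base. Families were taken by symbol, and 27 of 33 listed pathway symbols were found besides the RS-m synthetases (42 genes in all). Members, lists, words and roles were chosen with earlier results of these data known. Values in every list are given for the 10 strongest members and the 3 on each side of the threshold. Other members with a peak and pathway genes with a peak are named with their signal value, and members in no list by name. Members without a peak that are named for their role, arm or rank were added after their values were seen. Groups are described by counts beside all genes, with no test. Assignment to starts was tested on simulated data, where 600 of 600 cases matched a direct search. Alternatives were other distances, overlap rules, starts, thresholds and each replicate alone. The tools were pandas 2.3.3, numpy 2.4.6, matplotlib 3.10.9 and scipy 1.17.1, run under Python 3.11.15.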

Additional observations from a re-analysis of the deposited data

How the results depend on the processing

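The count of 25 members with a peak kept within 1.5 times under a distance of 200 bp (21, or 28.8% against 13.0% of all genes) or 1000 bp (25, against 19.9%), any base of the region in place of the summit, the first start of each gene, and each replicate alone (28 to 29; 19 in the large subunit, 9 to 10 in the small). It moved to 14 when a summit counted only for the nearest gene (10 large, 4 small; 19.2% against 12.7%) and to 15 with the stronger 50% of the IDR peaks (11 large, 4 small; 5 pathway genes), which is 20.5% against 9.66% of all genes. The cause was not tested beyond the construction of these rules, which can only remove genes. The small subunit fell to 5 at 200 bp. Added after the data were seen, the strongest 1000 and 10000 pooled regions gave 10 and 53 members, genes without a divergent start 3 and X genes 0. Within 50 bp, 11 of the 25 member summits (44%) held any of the 9 words, near the 41.4% of 1868 IDR peaks at protein coding starts. In wider windows the count rose to 18 within 100 bp and 20 within 150 bp, with no share over other peaks taken there. The median signal value was 105.2 over IDR peaks and 53.1 over all listed members. Each replicate alone listed 61 to 67 members. No paired analysis was possible because there is 1 group.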
